A study of Rattus norvegicus with 2 samples.

Results

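The AP-1 and EGR immediate early factors are described here in rat liver after a choline-deficient diet. The 10 members (Jun, Junb, Jund, Fos, Fosb, Fosl2, Atf3, Egr1, Egr2 and Egr3) were taken by gene symbol, from 33719 gene names on the array, and are covered by 11 probes. Wister rats (so spelled in the labels) of 7 weeks of age were given a choline-deficient diet or a control diet for 10 days, and total liver RNA of the diets was compared on 2 two-colour Agilent arrays. The choline-deficient RNA was labelled with Cy5 on array 1 and with Cy3 on array 2, which makes the pair a dye swap. 4 choline-deficient rats are mentioned in the labels, which leave unsaid how many of them each array held. SDs and p-values thus measure only the spread between the arrays, which may be technical. For the p-values that spread is mostly pooled over all genes.

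AP-1 is a dimer of basic leucine zipper proteins. Jun, Junb and Jund encode the Jun partners, and Fos, Fosb and Fosl2 encode Fos partners, which need a Jun protein to bind DNA. Atf3, a related leucine zipper protein of the ATF/CREB group, is induced by many kinds of stress and can pair with Jun. Egr1, Egr2 and Egr3 encode zinc finger factors that bind GC-rich sites. Many of these genes are transcribed within minutes of a growth, injury or stress signal, through serum response factor bound at CArG boxes and through CREB and ATF proteins bound at cyclic AMP response elements (CRE), while Jund is known for a steadier level. In liver, the family is known for its induction in regeneration and injury.

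Of the 10 members, Atf3, Jun, Jund, Egr2 and Egr1 rose, Junb, Fosb, Fosl2 and Egr3 did not pass the test, and Fos could not be tested because its signal lay near background. The largest rise was that of Atf3, at 4.11-fold. In limma's test, with a Benjamini-Hochberg adjusted p under 0.05 over 18195 genes, 4.37% of genes tested were called higher, 4.25% lower and 8.62% in either direction. No member was called lower, and no member fell at an unadjusted p under 0.05. The calls depended on the dye normalization, as given beside the values below.

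Promoter windows (250 bases before to 50 after the start site) from RefSeq, build GRCr8, were at hand for 6 members, each with 1 window, and for 3 of the called ones. The 250 bases before the start site of these 3 are shown because motif matches for the factors named above stand in them. They are printed along the transcribed strand, with matches to the CArG box, the CRE (TGACGTCA) and the EGR site (GCGNGGGCG), searched on both strands, in capitals. The Egr1 window lies at chr18:26736828-26737077 on the plus strand, the Egr2 window at chr20:21054442-21054691 on the minus strand and the Jund window at chr16:18769772-18770021 on the minus strand.
Egr1: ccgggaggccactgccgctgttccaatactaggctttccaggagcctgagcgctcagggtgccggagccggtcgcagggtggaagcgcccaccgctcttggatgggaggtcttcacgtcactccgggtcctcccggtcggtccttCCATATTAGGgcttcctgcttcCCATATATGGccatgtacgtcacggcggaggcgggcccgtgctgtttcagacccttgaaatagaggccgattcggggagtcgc
Egr2: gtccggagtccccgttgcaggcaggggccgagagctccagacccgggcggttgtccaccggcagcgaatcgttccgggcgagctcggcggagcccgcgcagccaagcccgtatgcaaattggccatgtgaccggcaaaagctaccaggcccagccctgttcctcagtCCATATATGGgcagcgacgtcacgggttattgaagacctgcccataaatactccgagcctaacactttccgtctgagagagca
Jund: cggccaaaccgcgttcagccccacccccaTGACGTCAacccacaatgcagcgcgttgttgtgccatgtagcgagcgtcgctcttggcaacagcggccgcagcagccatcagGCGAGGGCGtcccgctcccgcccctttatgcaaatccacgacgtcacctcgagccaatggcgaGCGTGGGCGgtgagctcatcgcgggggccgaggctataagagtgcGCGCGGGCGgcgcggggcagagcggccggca

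The Egr1 window held 2 CArG boxes, from -105 to -96 and from -83 to -74 relative to the start site, and the Egr2 window held 1, also from -83 to -74. The box nearer to the start in Egr1 and the box in Egr2 had the same letters, CCATATATGG. A CArG box was in 1.64% of 33469 windows of the same length over 27457 genes, and in none of the other 4 member windows. Jund held a CRE from -221 to -214 and 3 EGR sites between -139 and -23. Over all windows, 1.83% held a CRE and 4.98% an EGR site, and among the members Fosl2, which was not called, also held EGR sites. The AP-1 site (TGANTCA) was in 7.33% of all windows and in 0 of the 6 member windows. The TATA motif (TATAAA) was in 14.2% of all windows and, among the members, in those of Fosb and Junb, neither of which was called. The Junb match lay on the transcribed strand from -49 to -44, and the Fosb match on the opposite strand from -180 to -175. No match overlapped a match of another motif, and a match describes letters and not binding.

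Among the Jun partners, Jun and Jund rose and Junb did not pass. For Jun, the normalised log2 signal was 11.49 in control and 12.80 in choline-deficient liver on array 1, and 11.58 and 12.63 on array 2. The choline-deficient reading was the higher one on each array, and the diets did not overlap. How many of all genes tested separate in this way was not counted, here or for the members below. Separation of so few readings is thus no support by itself. The log2 ratio of choline-deficient over control was 1.31 and 1.05, with a mean of 1.18 ± 0.18 (SD, n = 2 arrays), which is a fold of 2.27 (adjusted p = 1.25e-14 by limma). The Jun probe lies on chromosome 5 from 115358764 to 115358823, minus strand, in the rat build rn4 of the array files.

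Jun and Egr1 are among the genes whose probe is spotted 10 times, so their ratios could be read repeatedly within an array. Of the Jun spots, Feature Extraction marked 3 on array 1 and 2 on array 2 as outliers. The remaining 7 spots on array 1 ranged from 1.23 to 1.45 in log2 ratio (median 1.32, SD 0.078), and the 8 on array 2 from 1.03 to 1.13 (median 1.04, SD 0.033). Every one of these spots was above 0, and the arrays did not overlap, so the arrays differed by more than the spots within an array. With the outlier spots kept, the mean for Jun was 1.18.

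**Figure D1:**
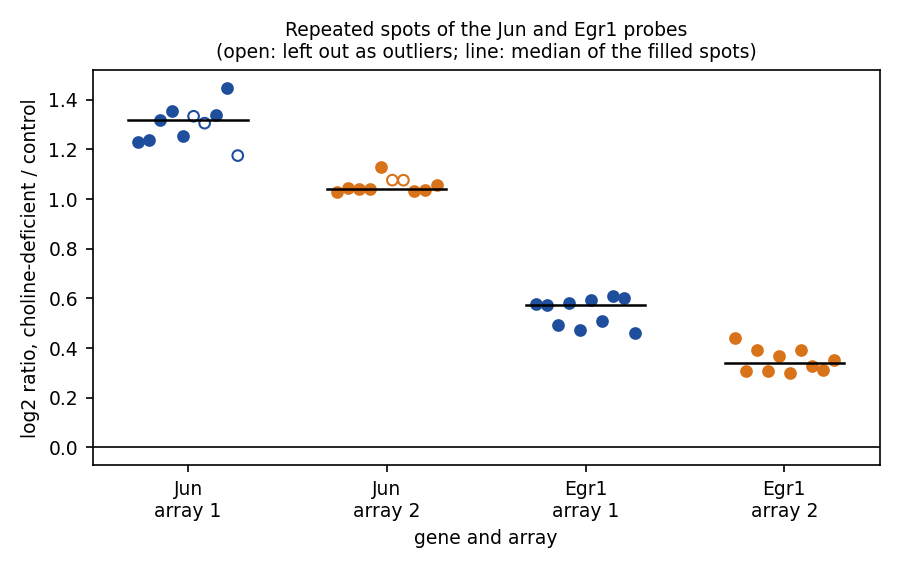
Log2 ratio of choline-deficient over control (vertical axis) for each spot of the Jun and Egr1 probes on each array, with open circles for spots left out as outliers and a line at the median of the others. The Jun spots in use lie between 1.03 and 1.45 and the Egr1 spots between 0.30 and 0.61, all above 0, and for each gene array 1 lies above array 2.

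Jund has 2 probes. The brighter one (chromosome 16, 19239704 to 19239763, minus strand, rn4) read 11.93 in control and 12.66 in choline-deficient liver on array 1, and 11.79 and 12.81 on array 2, on the normalised log2 scale. The diets did not overlap. Its log2 ratios of 0.73 and 1.03 gave a mean of 0.88 ± 0.21 (SD, n = 2 arrays), which is a fold of 1.84 (adjusted p = 5.89e-10 by limma). The dimmer probe, 569 bases upstream in the transcript's direction (19240333 to 19240392), gave 0.27 and 0.67, with a mean of 0.47 ± 0.28 (SD, n = 2 arrays). The probes had the same direction on each array, and the ratio of the dimmer one was the smaller on each. With the mean of both probes, Jund was at 0.67 (limma adjusted p = 4.07e-06).

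Junb read 8.16 in control and 8.17 in choline-deficient liver on array 1, and 8.10 and 8.35 on array 2. The diets did not overlap for Junb either, so separation did not mark only the called members. Its mean log2 ratio was 0.13 ± 0.17 (SD, n = 2 arrays; limma adjusted p = 0.628), with a 95% interval from limma of -0.07 to 0.34. The interval includes 0.

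3 probe sequences are shown because the readings below and above rest on them: the dimmer Jund probe, the Junb probe, and the Fos probe, whose signal was near background. Each has 60 bases and, in at least 1 frame, no stop codon before its last codon.
Jund (dimmer probe): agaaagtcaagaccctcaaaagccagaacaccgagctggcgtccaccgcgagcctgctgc
Junb: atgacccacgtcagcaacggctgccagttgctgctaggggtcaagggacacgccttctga
Fos: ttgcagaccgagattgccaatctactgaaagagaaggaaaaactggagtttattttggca

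Of the Fos partners, Fosb and Fosl2 did not pass the test, and Fos was not in it. Fos itself was well above background only in choline-deficient liver on array 1. Its raw mean signals were 119 and 107 in choline-deficient liver and 91.6 and 96.0 in control liver on arrays 1 and 2, against local backgrounds of 46.5 to 53.5. The log2 ratios were 0.28 and 0.03, and Fos was left out of the test for its low signal. With no filter on dim probes, limma gave it an adjusted p of 0.955. In the authors' deposited table of log ratios, without an offset, Fos stood at 2.49 on array 1 and 1.11 on array 2 on the log2 scale. The p of each array's own error model was 0.000372 on array 1 and 0.452 on array 2. Background and dye correction both differ between the deposited ratios and the 0.28 and 0.03 above. Their parts were not separated, and no fold is given.

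Fosb and Fosl2 were well above background in both diets on both arrays. Fosb read 7.80 in control and 7.70 in choline-deficient liver on array 1, and 7.96 and 7.88 on array 2, for a mean log2 ratio of -0.09 ± 0.01 (SD, n = 2 arrays; limma adjusted p = 0.817; 95% interval -0.29 to 0.11). Fosl2 read 7.41 and 7.33 on array 1 and 7.48 and 7.64 on array 2, and its log2 ratios of -0.08 and 0.16 had opposite signs (mean 0.04, limma adjusted p = 0.953; 95% interval -0.17 to 0.24). Both intervals include 0.

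Atf3 stood furthest from 0 of the members. Its raw mean signals were 4476 in choline-deficient and 478 in control liver on array 1, and 2456 and 1110 on array 2, against local backgrounds of 41.5 to 50. After normalization it read 9.61 in control and 11.62 in choline-deficient liver on array 1, and 9.60 and 11.67 on array 2. The arrays agreed closely and the diets were far apart. The log2 ratios of 2.01 and 2.07 averaged 2.04 ± 0.04 (SD, n = 2 arrays; limma adjusted p = 9.53e-26), and only 2 of the 18195 genes tested had a higher mean ratio. Its probe is placed on chromosome 13 from 107191582 to 107191614, minus strand, in rn4. That span is shorter than the probe, which has 60 bases.

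The 5 genes with a symbol whose pair of log2 ratios lay nearest to that of Atf3 (Euclidean distance over the 2 arrays, among 11209 genes) were Insig1, Aldh1a7, Ccl2, Btg2 and Ubd. Insig1, a sterol-responsive regulator of SREBP processing, was nearest, with log2 ratios of 2.19 and 2.04 and a distance of 0.188. Ubd, a ubiquitin-like modifier, was the fifth, with 1.47 and 1.64 and a distance of 0.690. Likeness over 2 arrays describes a similar size of change only.

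**Figure D2:**
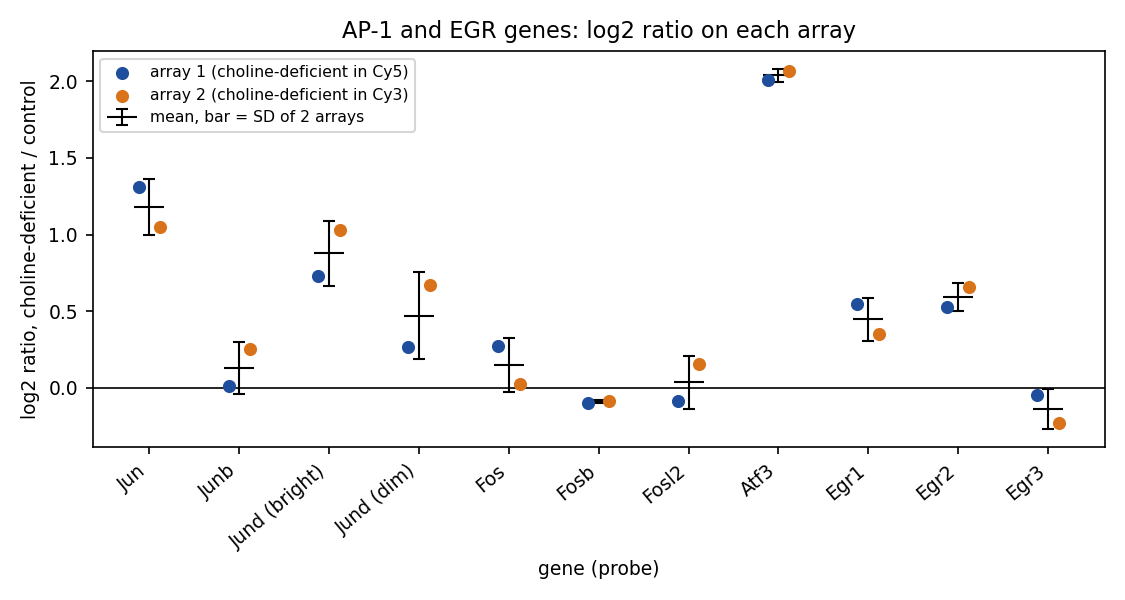
Log2 ratio of choline-deficient over control (vertical axis) for each of the 11 member probes, with array 1 in blue, array 2 in orange, and the mean with its SD over the 2 arrays in black. Atf3 lies at 2.01 and 2.07, Jun at 1.31 and 1.05 and the brighter Jund probe at 0.73 and 1.03, while Fosb and Egr3 lie below 0 on both arrays.

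Of the EGR factors, Egr1 and Egr2 rose and Egr3 did not pass. Egr1 read 9.32 in control and 9.86 in choline-deficient liver on array 1, and 9.36 and 9.71 on array 2. The diets did not overlap. Its 10 spots ranged from 0.46 to 0.61 in log2 ratio on array 1 and from 0.30 to 0.44 on array 2, all above 0, with SDs of 0.057 and 0.047. For comparison, the median SD over the 166 kept probes with 10 spots was 0.061 on array 1 and 0.051 on array 2. The log2 ratios of 0.55 and 0.35 averaged 0.45 ± 0.14 (SD, n = 2 arrays), which is a fold of 1.36 (adjusted p = 0.00116 by limma). The Egr1 probe lies on chromosome 18 from 27347173 to 27347232, plus strand, in rn4.

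Egr2 read 7.22 in control and 7.75 in choline-deficient liver on array 1, and 6.93 and 7.59 on array 2, again without overlap. The log2 ratios were 0.53 and 0.66, with a mean of 0.59 ± 0.09 (SD, n = 2 arrays), which is a fold of 1.51 (adjusted p = 1.00e-05 by limma). The probe lies on chromosome 20 from 21883940 to 21883999, minus strand, in rn4. In control liver Egr2 was well above background on 1 of the 2 arrays, and it was kept in the test through its choline-deficient readings. At this signal the offset of 50 added to each channel weighs on the ratio: with an offset of 16 the mean was 0.76. In the authors' deposited table of log ratios, where the dye and background corrections differ too, it was 1.75 on the log2 scale.

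Egr3 read 7.13 in control and 7.08 in choline-deficient liver on array 1, and 7.40 and 7.17 on array 2. Its mean log2 ratio was -0.14 ± 0.13 (SD, n = 2 arrays; limma adjusted p = 0.599; 95% interval -0.34 to 0.07). The arrays had the same sign, opposite to that of Egr1 and Egr2. Egr3 was dim, with raw mean signals of 122 and 138 in choline-deficient and 119 and 178 in control liver on arrays 1 and 2. With an offset of 16 its mean was -0.18. With the deposited log ratio, where the dye and background corrections differ too, it was -0.43, which lies below that interval. The Egr3 probe lies on chromosome 15 from 50478983 to 50479042, plus strand, in rn4.

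**Figure D3:**
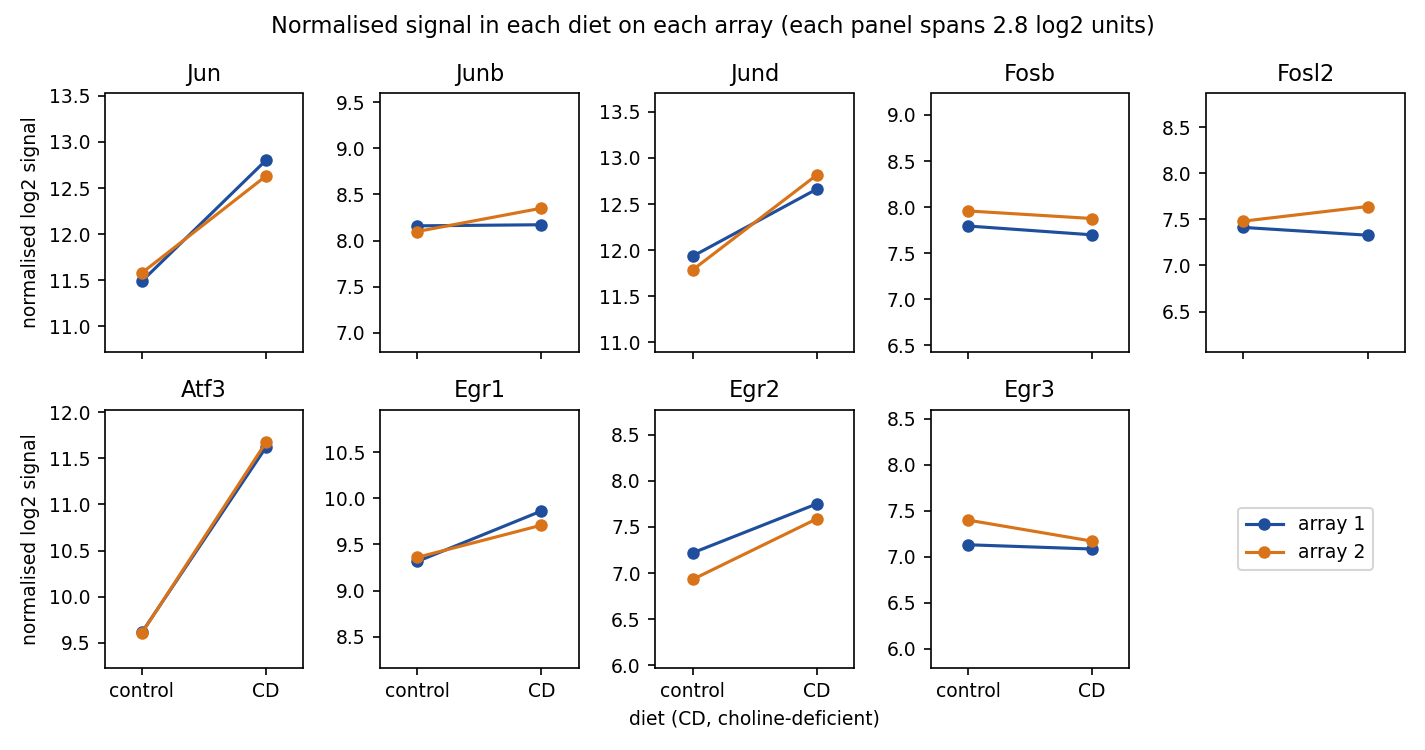
Normalised log2 signal (vertical axis) in control and choline-deficient liver (CD) for the 9 members tested, with a line for each array; every panel spans the same number of log2 units, and levels of different panels are not comparable. The lines of Atf3, Jun, Jund, Egr1 and Egr2 rise on both arrays, and those of Junb, Fosb, Fosl2 and Egr3 change by at most 0.25 on either array.

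The size of the called ratios before dye normalization differed between the arrays. The raw signal of choline-deficient over control was 9.37-fold for Atf3 on array 1 and 2.21-fold on array 2, 5.99-fold and 1.01-fold for Jun, and 4.01-fold and 0.982-fold for the brighter Jund probe. For Egr1 it was 3.08-fold and 0.727-fold. The raw signals of Egr1 and of the brighter Jund probe thus pointed in opposite directions on the arrays. Those of Jun were nearly equal in the diets on array 2. For Egr2 the raw signals were 223 over 108 on array 1 and 176 over 135 on array 2. Loess, which removes the average dye difference at each brightness, brought the arrays together. With median centring, which leaves a dye difference that changes with brightness in place, the log2 ratios of all genes correlated negatively between the arrays (Pearson r = -0.59 across genes, against 0.55 after loess). Under it the members' means were as high as after loess (Atf3 2.22, Jun 1.37, Jund 1.06, Egr1 0.62 and Egr2 0.69), but Egr1 stood at 1.46 on array 1 and -0.22 on array 2, and limma called neither a member nor any other gene (1 member and 19 genes at an unadjusted p under 0.05).

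The authors' deposited log ratio, which carries its own dye normalization and no offset, gave array values near those after loess for Atf3, Jun, Jund and Egr1 and larger ones for Egr2. On the log2 scale it stood at 2.27 and 2.20 for Atf3, 1.35 and 1.07 for Jun, 0.83 and 0.99 for the brighter Jund probe, 0.61 and 0.38 for Egr1, and 1.92 and 1.59 for Egr2. Limma with 1 prior for all brightness levels called no member on these values (6 members had an unadjusted p under 0.05), with adjusted p from 0.193 for Atf3 to 0.351 for Egr1. With a prior that follows brightness, an alternative chosen after seeing the data, it called the same 5 members as higher. In the authors' deposited table, the p of each array's own error model was 9.06e-15 and 2.20e-14 for Atf3, 1.15e-08 and 3.69e-06 for Egr2, and 0.00492 and 0.0676 (median over spots) for Egr1.

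**Figure D4:**
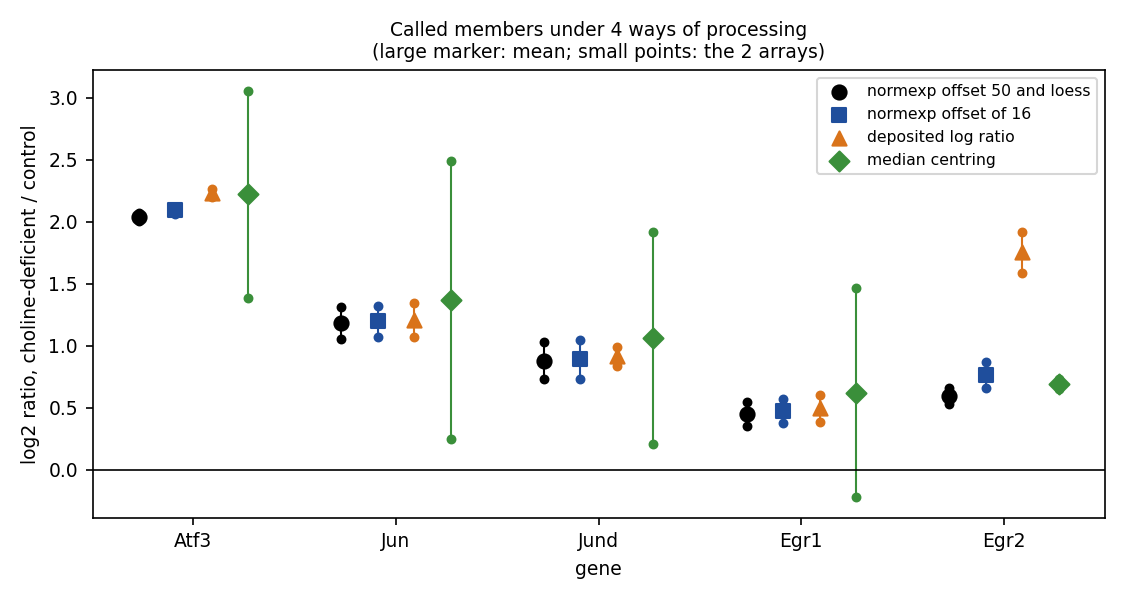
Log2 ratio of choline-deficient over control (vertical axis) for the 5 called members under 4 ways of processing, with a large marker for the mean and small points for the 2 arrays. The means of Atf3, Jun, Jund and Egr1 move little, and their arrays spread widely under median centring. The arrays of Egr2 stay close under it (0.73 and 0.65), and its mean moves from 0.59 to 1.75 with the deposited log ratio.

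The called members had positive ratios on both arrays, which a call on the mean of the same arrays largely fixes. Over all 18195 genes tested, 56.4% had the same sign on both arrays and the median log2 ratio was 0.00, with a median absolute ratio of 0.083. Ranked by mean log2 ratio from the highest, Atf3 was number 3, Jun 26, Jund 74, Egr2 186 and Egr1 335. Most genes called higher changed less than Jun: 193 of the 795 reached 1.5-fold.

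**Figure D5:**
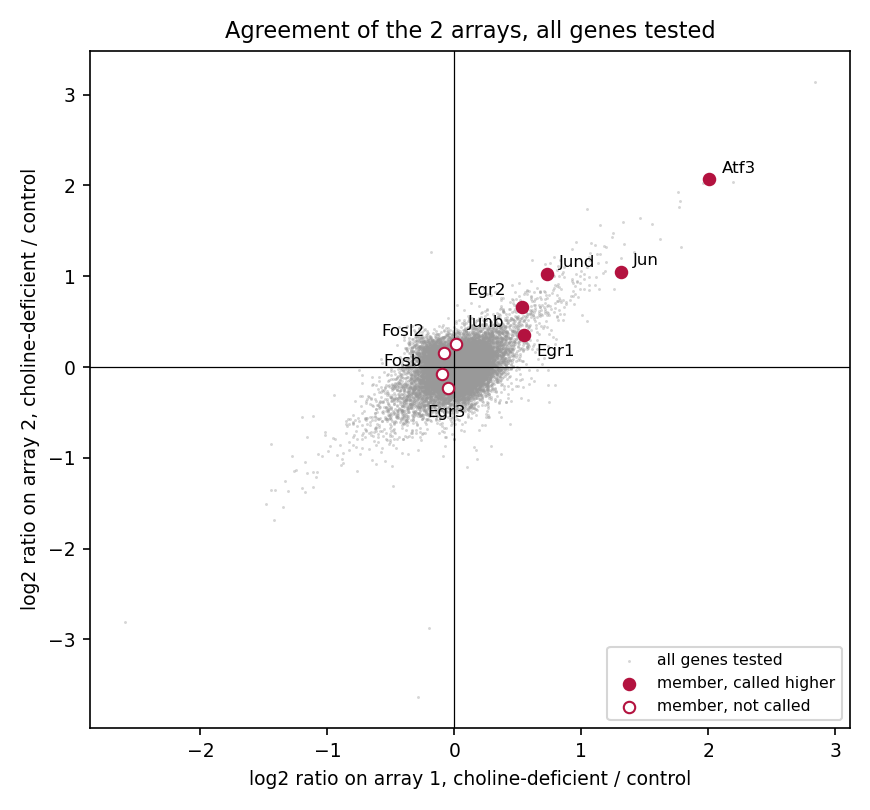
Log2 ratio of choline-deficient over control on array 1 (horizontal axis) against array 2 (vertical axis) for the 18195 genes tested (grey), with called members filled and members that did not pass open. Atf3, Jun, Jund, Egr1 and Egr2 lie in the upper right, and Junb, Fosb, Fosl2 and Egr3 lie inside the grey cloud around 0.

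The other genes of the system were taken from lists chosen with earlier results of these data known, so their counts are no independent support. Further AP-1 and EGR family members and their partners (15 genes such as Fosl1, Batf, Mafk and Nab1) had 10 tested and none called in limma (2 at an unadjusted p under 0.05), with mean log2 ratios from -0.23 for Maf to 0.20 for Mafk. Of 23 tested kinases, serum response factor partners and CREB genes upstream of the members, limma called none (1 at an unadjusted p under 0.05). They ranged from -0.04 for Map2k6 to 0.28 for Srf, the factor that binds CArG boxes (limma adjusted p = 0.0851). With an intensity trend, limma called 1 of these 23 higher, after loess and also on the deposited log ratio. The deposited log ratio with a trend also gave 1 higher among the 10 further family members and partners. The array measures transcripts, and kinase activity was not measured.

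Other immediate early genes moved in both directions. Of 25 tested, 8 rose and 2 fell, with a list median of 0.07 against 0.00 over all genes. The antiproliferative gene Btg2 rose by 1.57 ± 0.01 on the log2 scale (SD, n = 2 arrays), the matricellular gene Cyr61 by 1.25 ± 0.11, the Kruppel-like factor Klf6 by 1.19 ± 0.09 and the matricellular gene Ctgf by 0.80 ± 0.01. Cyr61 had a dimmer probe at 0.51, and the other Klf6 probes lay between 0.53 and 0.84. The genes that fell, named after their values were seen, were Ier2 (-0.36 ± 0.07) and the ERK phosphatase Dusp6 (-0.49 ± 0.26). Klf10, also named after its value was seen, was counted as higher although it read -0.18 on array 1 and 1.27 on array 2, and its other probe averaged -0.04.

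Known AP-1 or EGR target genes were called higher more often than lower. Of 21 tested, 9 rose and none fell (11 at an unadjusted p under 0.05), with a list median of 0.22. The chemokine Ccl2 rose by 1.81 ± 0.03 on the log2 scale (SD, n = 2 arrays), the osteopontin gene Spp1 by 1.52 ± 0.15, the macrophage elastase Mmp12 by 1.23 ± 0.17 and the lectin Lgals3 by 1.06 ± 0.28. The cyclin Ccnd1 (-0.02 ± 0.01) and the heme oxygenase Hmox1 (0.08 ± 0.17), also known targets, did not pass. Of 10 heat shock genes, which respond to cell stress and to handling, 3 rose and none fell (6 at an unadjusted p under 0.05), with a list median of 0.23. These were Hspa1b (1.35 ± 0.01), Hsp90aa1 (0.44 ± 0.26) and the co-chaperone Bag3 (0.44 ± 0.19); the near-identical copy Hspa1a was at 0.17 ± 0.11, and transcripts of the pair may cross-hybridise. With median centring or with the deposited log ratio and 1 prior, limma called no gene of any of these lists.

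Markers of the cell types that liver RNA can hold moved as follows, and in bulk RNA fewer cells of a type and less RNA per cell cannot be told apart. All 9 hepatocyte markers were above background, with 2 higher (Apoa1 and Ass1) and 2 lower (Alb and G6pc). Their median log2 ratio was 0.22 on array 1 and -0.38 on array 2. Tf, Serpina1 and Ttr had opposite signs on the arrays, and the other markers had the same sign. Of 10 macrophage markers tested, Marco and Lyz2 rose and Cd14 fell, and their summed normalised signal was 42033 and 45175 in choline-deficient and 50094 and 45886 in control liver on arrays 1 and 2. Among the 4 tested markers of neutrophils and mast cells S100a8 was called higher, and Elane, Mcpt1 and Camp were not tested for low signal; the sums were 632 and 661 against 606 and 580. Of 8 stellate cell markers, Col1a1, Col3a1 and Dcn rose, with sums of 14894 and 14897 against 13422 and 13519; the other Col1a1 probes stood at 0.01 and -0.06, and Acta2 was not analysed here. Of 5 endothelial markers Kdr fell (sums of 22585 and 22797 against 32223 and 28057), of 3 lymphocyte markers Gzma fell (1287 and 1275 against 1392 and 1407), and of 4 cholangiocyte markers none was called (1 at an unadjusted p under 0.05). In sums chosen after seeing the data, without Kdr the other 4 endothelial markers summed to 3026 and 2880 against 2994 and 2932, without Gzma the other 2 lymphocyte markers to 676 and 646 against 650 and 603, and without S100a8 the other 3 neutrophil and mast cell markers to 451 and 469 against 449 and 438. Likewise, without Col3a1 the other 7 stellate markers summed to 8286 and 8639 against 8037 and 8476. Without Clec4f the other 9 macrophage markers summed to 25637 and 26512 against 27562 and 25465, in opposite directions on the arrays. Some of these calls ended under other processing, and others were gained. With an intensity trend, 1 cholangiocyte marker was called higher. With the deposited log ratio and a trend it was again 1, and 2 endothelial, 2 macrophage and 1 stellate marker were called lower. Gzma was not called with an offset of 16 or without the filter on dim probes. S100a8 was not called without that filter or over all kept probes. The stellate list had 2 calls in place of 3 with an offset of 16, with probes averaged or over all kept probes. Without the filter it had 1. The hepatocyte list had 1 higher and 1 lower with an offset of 16 or an intensity trend. It had 2 higher and 1 lower without the filter, with probes averaged or over all kept probes. No marker of any list was called with median centring or with the deposited log ratio and 1 prior. The lymphocyte markers Cd3e, Cd2 and Cd79b were not tested for low signal. The part of these cell types in the members' changes was not tested.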

How the data were processed

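Liver total RNA was hybridised to 2 Agilent arrays. Per the file headers, the authors ran version 9.5.3.1 of Feature Extraction, given as 9.5 by the submitters' processing notes. Probe positions are in rn4. The deposited scanner files hold raw intensity of spot and local background per dye, the log10 ratio of Cy5 over Cy3 after the authors' background and dye correction, its p-value from an error model within 1 array, and other values such as the deposited detection and outlier flags. The deposited series table equalled the log10 ratio within 1% in 45018 of 45018 rows on each array, unturned for the dye swap, with a column median of 0.

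Mean signal and median local background entered limma 3.58.1 (R 4.3.3): normexp (offset 50), then loess per array, in which control spots had weight 0. A positive offset shrinks the ratio of a dim spot. The 174 and 151 outlier spots were dropped before averaging each probe. Probes well above background on both arrays in at least 1 diet were kept (22378, where over 0.5 of a probe's spots had to pass), and each gene is its probe of highest mean intensity (18195 genes). Of gene spots, 53.5% to 63.2% per dye and array were well above background, and none was saturated. Ratios, turned to choline-deficient over control, were tested against 0 with lmFit and eBayes, two-sided, with Benjamini-Hochberg adjustment over all genes. The test has 1 residual and 63.0 prior degrees of freedom; most of the error estimate is thus shared by all genes. Intervals are 95%. Signals per diet are after loess and A-quantile scaling. The test was also run on simulated ratios, with noise shuffled over genes and drawn independently for each array. Error shared by the arrays or tied to brightness could not show there, so nothing about the p-values is concluded from it.

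Members, lists and alternatives were chosen with earlier results of these data known. Named beside the members are up to 4 called genes per list with the largest absolute mean ratio and the 5 genes nearest to the leading member, except where the text says otherwise or gives a list's range or counterexamples and cell type markers. Promoters are RefSeq's (GRCr8), motifs were matched letter by letter, and no rn4 annotation was used here. Alternatives are an offset of 16, median centring, the deposited log ratio, no filter, other rules for probes and spots, other eBayes priors and each array alone.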

Additional observations from a re-analysis of the deposited data

How the results depend on the processing

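The count of 5 called members, all higher, was the same with an offset of 16, without the filter on dim probes, with a gene's probes averaged, over all kept probes, with an intensity trend, with robust eBayes and with outlier spots kept. It was 0 with median centring and 0 with the deposited log ratio (1 and 6 members at an unadjusted p under 0.05), and 0 with median centring and an intensity trend, which was chosen after seeing the data, as was the deposited log ratio with a trend (5). Against 1568 genes called over all (795 higher), limma called 0 with median centring (19 at an unadjusted p under 0.05), 0 with the deposited log ratio (2122), 2361 with the deposited log ratio and a trend, and 5 (4 of them higher) with median centring and a trend. The means of Atf3, Jun, Jund, Egr1 and Egr2 kept their sign under every alternative run, with ranges of 2.01 to 2.23, 1.05 to 1.37, 0.67 to 1.06, 0.35 to 0.62 and 0.53 to 1.75, each array alone included. Fosl2, which was not called, changed sign: it was -0.084 on array 1 and 0.16 on array 2 alone, and -0.019 with the deposited log ratio, with or without a trend. The cause was not tested. Each array holds both diets, so the test on ratios within each array is already paired by array. The number of arrays limits every value, and signal near background limits Fos and, in control liver, Egr2. Egr3 and Fosl2 were dim too, and the offset weighs on their ratios.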
